A study of Saccharomyces cerevisiae x Saccharomyces kudriavzevii and Saccharomyces cerevisiae with 12 samples.

Results

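VIN7 is a commercial wine yeast, a hybrid of Saccharomyces cerevisiae and S. kudriavzevii. Its expression during fermentation at 12 °C was compared with that of the S. cerevisiae wine strain Lalvin T73. All samples of VIN7 at 12 °C were taken by their labels, which gave 3 of the 12 arrays in the series, replicates A, B and C. The other arrays, 3 for each group, compared VIN7 at 28 °C and the second hybrid, Lalvin W27, at 12 and 28 °C with T73. All strains fermented Tempranillo must, and the cells were collected at the beginning of the stationary phase. Each array carried PCR-amplified open reading frames (ORFs) of the laboratory strain S288c and received hybrid cDNA labelled with Cy3 together with T73 cDNA labelled with Cy5. By the labels the arrays of a group are biological replicates. By the methods only 2 fermentations lay behind the 3 hybridizations, so p-values may measure partly technical spread.

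In a hybrid of this kind the cells hold alleles of both parental species. In VIN7, S. cerevisiae contributes the larger share of the chromosomes. S. kudriavzevii is known for growth in the cold, and S. cerevisiae for tolerance of heat and ethanol. The measured value, a log2 ratio, adds the signal of all alleles that bind an ORF, so the parental alleles cannot be told apart. The methods name heterologous conditions, used so that the S. kudriavzevii genome would hybridize. How well S. kudriavzevii cDNA bound to S288c ORFs was not tested here. The dyes were the same on all arrays, so a dye effect and a strain effect cannot be told apart either.

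All values below are log2 ratios of hybrid over T73, where 1 stands for a 2-fold higher and -1 for a 2-fold lower signal in the hybrid. This direction is likely and not stated beside the values. It was derived from the dyes and from the direction the study gives for YIR007W and YMR210W. The table held 6178 ORFs, of which 6166 had a value on at least 2 of the 3 arrays. The systematic names are not paired with gene symbols or functions in the files, so ORFs are described by what the name itself encodes, which is the chromosome, the arm, the strand and the order from the centromere. Named are YHR162W and YGR139W as the highest and YFL012W-A and YFL014W as the lowest of the ORFs that passed the test below with 1 sign on 3 arrays, beside YIR007W and YMR210W.

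The VIN7 arrays differed in spread. Replicate A had 6139 values with an SD of 1.25 over ORFs. Replicate B had 6091 values with an SD of 1.59. Replicate C was the narrowest, with 6168 values and an SD of 0.79. The array medians were close to 0 at -0.02, 0.03 and -0.00 for A, B and C. A change beyond 2-fold was seen for 39.0% of ORFs on replicate A, 49.4% on replicate B and 13.0% on replicate C. On replicates A and B the upper tail was the heavier one, with 390 and 741 ORFs at least 4-fold higher in VIN7 against 164 and 317 at least 4-fold lower. Replicate C went the other way, with 53 at least 4-fold higher and 71 at least 4-fold lower.

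**Figure D1:**
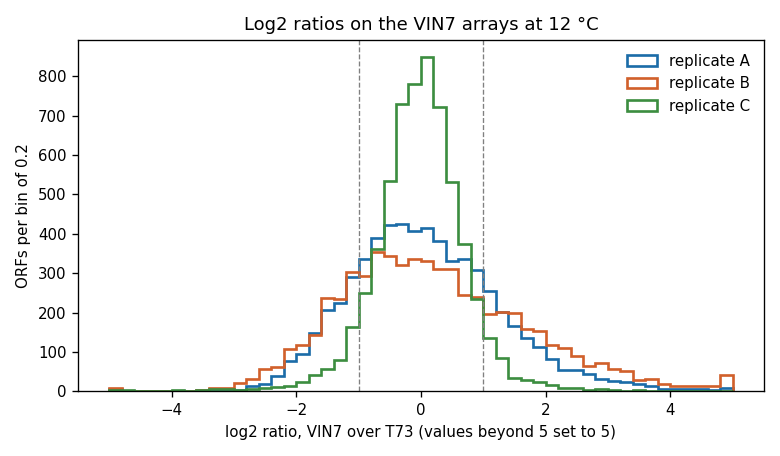
Distribution of log2 ratios (VIN7 over T73, x axis) as the number of ORFs per bin of 0.2 (y axis) on each of the 3 VIN7 arrays at 12 °C, with dashed lines at 2-fold. Replicate C is concentrated between the dashed lines, with 13.0% of ORFs beyond them against 39.0% on A and 49.4% on B.

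Replicates A and B resembled each other more than either resembled C. Across ORFs, Pearson's r was 0.54 between A and B, 0.26 between A and C and 0.22 between B and C, with Spearman's rho of 0.55, 0.29 and 0.23. ORFs on an array share its labelling and hybridization and are not independent, so these values describe the arrays and carry no p. The sign was the same in 68.2% of ORFs for A and B, 60.7% for A and C and 57.4% for B and C. Of 6056 ORFs with a value on all 3 arrays, 1299 were higher in VIN7 on every array and 1319 were lower on every array, together 43.2%. Far fewer were beyond 2-fold each time. These were 61 ORFs higher in VIN7 (1.01%) and 136 lower (2.25%). Beyond 4-fold on every array were 4 higher and 16 lower.

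**Figure D2:**
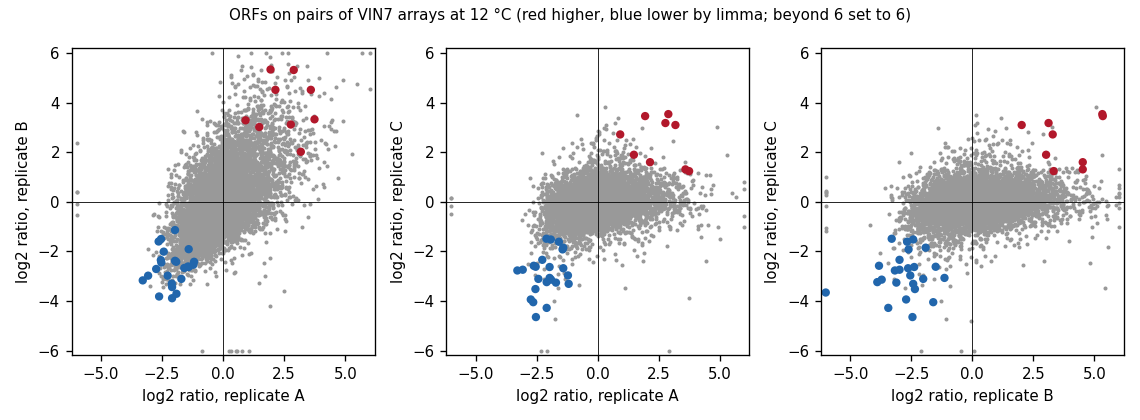
Log2 ratios of each ORF on pairs of VIN7 arrays at 12 °C (grey points, both axes hybrid over T73), with the 9 ORFs higher (red) and 25 lower (blue) by limma. The cloud of A against B is elongated along the diagonal (r = 0.54), whereas those of A and B against C are flatter (r = 0.26 and 0.22).

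Genes beyond a fold threshold were counted first, as in the methods. By the median over the arrays, 855 ORFs (13.9%) were at least 2-fold higher in VIN7 than in T73 and 731 (11.9%) were at least 2-fold lower, together 1586 (25.7%). This rule has no test. The median was at least 4-fold higher in 193 ORFs and at least 4-fold lower in 97. The replicates did not always share the direction of these ORFs. Of 815 higher ORFs with 3 values, 517 (63.4%) were above 0 on every array, and replicate C was the array that lay below 0 in 263 of the others. Of 723 lower ORFs with 3 values, 532 (73.6%) were below 0 on every array, and replicate C was above 0 in 155. Replicates A and B opposed the other arrays in 11 to 24 ORFs for either direction. The median SD over arrays was 0.99 in the ORFs beyond 2-fold and 0.74 over all ORFs, so for many of them a median of 1 lies close to the spread of the replicates. Without replicate C the count of higher ORFs was 1307, which is over 1.5 times that with all arrays.

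A moderated test of the mean against 0 (limma, with the spread estimated over all 12 arrays and Benjamini-Hochberg adjustment over all ORFs) kept a small share of these. Higher in VIN7 were 9 ORFs (0.146% of those tested) and lower were 25 (0.405%), together 34 (0.551%), all of which were also beyond 2-fold by the median. At an unadjusted p under 0.05 there were 733 higher and 564 lower ORFs. With the adjusted p relaxed to 0.1 there were 24 higher and 61 lower. The number of calls depended strongly on single arrays. It was 13 without replicate A (5 higher and 8 lower), 0 without replicate B (465 at an unadjusted p under 0.05) and 200 without replicate C. The excess of lower calls did not hold without C, where 161 were higher and 39 lower, nor with array weights, where 82 were higher and 84 lower. It was also 20, 8 and 19 without replicate A, B or C of W27 at 12 °C, although these arrays enter the test only through the shared spread.

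The 9 higher ORFs had mean log2 ratios between 2.13 and 3.92 with a median of 2.77. All were above 0 on every array, and 8 were beyond 2-fold each time. Their values lay between 0.92 and 3.74 on replicate A, between 2.02 and 5.34 on replicate B and between 1.24 and 3.54 on replicate C. The largest of the 3 values came from replicate B in 6 of the 9, from A in 2 and from C in 1. Among the 100 highest ORFs of each array were 3 of them on A, 4 on B and 6 on C. By name, 3 of them lie on the right arm of chromosome VII, where 296 ORFs were tested. The W strand encodes 6 of them, beside 3074 of the 6166 ORFs tested.

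YHR162W, on the right arm of chromosome VIII, had the highest mean among the ORFs past the test. Its log2 ratios were 2.89, 5.32 and 3.54 on replicates A, B and C. All values were far above 0, with B the highest. The mean was 3.92 ± 1.26 (SD, n = 3) with an interval at 95% confidence of 2.95 to 4.89 (limma, adjusted p = 0.00361), and the median corresponds to an 11.7-fold higher signal. In W27 at 12 °C the same ORF read 1.1, 1.5 and 1.44, so the lowest VIN7 value lay above the highest of W27. In VIN7 at 28 °C it read 0.86, 0.59 and 0.02. Replicate C at 28 °C has no settled direction, because it ran opposite to several other arrays. With replicates A and B at 28 °C its correlation was weakly positive (r = 0.06 with each). The value of replicate C may carry the wrong sign for any ORF.

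YGR139W, on the right arm of chromosome VII, came next. Its log2 ratios were 1.94, 5.34 and 3.46, with B again the highest and A the lowest. The mean was 3.58 ± 1.70 (SD, n = 3) with an interval of 2.13 to 5.03 (limma, adjusted p = 0.040). It read 0.09, 1.90 and 2.76 in W27 at 12 °C, which overlaps the VIN7 values. It read -0.30, -0.57 and -2.03 in VIN7 at 28 °C. These values are below 0 as deposited, but with the unsettled replicate C turned the last would be above 0, and the arrays would share no direction. The T73 control was grown at the same temperature as the hybrid, so the ratios at 12 and 28 °C have different denominators.

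The 25 lower ORFs had mean log2 ratios between -6.16 and -1.72 with a median of -2.53. All 24 with 3 values were beyond 2-fold lower on every array. Replicate C did not have the small values here that it had over all ORFs. The median over the 25 was -2.09 on replicate A, -2.63 on replicate B and -2.97 on replicate C, and C gave the lowest value in 13. Of the 100 lowest ORFs of each array they made up 10 on A, 14 on B and 22 on C. These counts describe ORFs that the test chose for a low mean, a choice that favours low values on every array. The remaining ORF, on the right arm of chromosome I, had no value on replicate A, and its values of -8.65 on B and -3.66 on C gave the lowest mean of the 25.

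Among the chromosome arms, the left arm of chromosome VI held 4 of the lower calls in 72 ORFs tested, and the right arm of chromosome VII held 3 in 296. Over all arms there were 25 lower calls in 6166 ORFs tested (0.405%). Every other arm held 2 or fewer. On the left arm of VI, 2 of the calls are next to each other in the order of names, the only such pair among all calls. The arms were compared after the calls were seen, and no test was made of them.

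YFL012W-A, on the left arm of chromosome VI, had the lowest mean among the ORFs past the test with the same sign on 3 arrays. Its log2 ratios were -2.09, -3.44 and -4.28 on A, B and C, all beyond 4-fold lower in VIN7. The mean was -3.27 ± 1.11 (SD, n = 3) with an interval of -4.41 to -2.12 (limma, adjusted p = 0.0287). In W27 at 12 °C it read -2.21, -1.15 and -2.83, which overlaps with VIN7. YFL014W, on the same arm, read -2.53, -2.45 and -4.65 in VIN7, again lowest on C. Its mean was -3.21 ± 1.25 (SD, n = 3) with an interval of -4.58 to -1.84 (limma, adjusted p = 0.0447). In W27 at 12 °C its values of -2.75, -0.10 and -1.46 were more scattered, and in VIN7 at 28 °C it read -2.35, -3.03 and 0.14, the last on the unsettled array. Without replicate B none of the 4 ORFs passed the threshold. The mean of YHR162W was then 3.22 (limma, adjusted p = 0.055) and that of YGR139W 2.70 (limma, adjusted p = 0.43). The mean of YFL012W-A was -3.19 (limma, adjusted p = 0.252) and that of YFL014W -3.59 (limma, adjusted p = 0.272). Both lower means were thus about as large as with all arrays, whereas both higher means were smaller. The calls of YHR162W (limma, adjusted p = 0.00815 and 0.0135), YGR139W (0.043 and 0.0435) and YFL012W-A (0.0411 and 0.0422) were kept without A and without C. The cause of the loss without B was not tested. YFL014W also missed the threshold without A, at -3.55 (limma, adjusted p = 0.156), and without C, at -2.49 (limma, adjusted p = 0.0718).

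**Figure D3:**
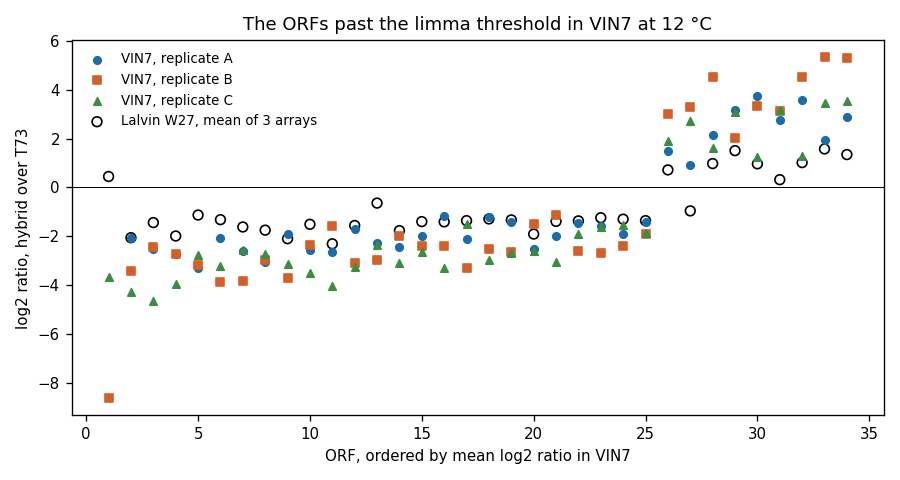
Log2 ratios over T73 at 12 °C (y axis) of the 34 ORFs past the limma threshold in VIN7, ordered along the x axis by their mean, for each VIN7 array (filled) and as the mean of the 3 W27 arrays (open circles). The VIN7 values of an ORF lie on 1 side of 0, as the choice of these ORFs by their VIN7 values favours, and the W27 means range from -2.31 to 1.58.

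The study discusses YIR007W and YMR210W by systematic name because of their possible part in aroma. YIR007W, a putative glycosidase, belongs to the enzymes that can release aroma compounds bound to sugars. Its log2 ratios in VIN7 were 1.49, 3.52 and 0.76, all above 0 and highest on replicate B. The mean of 1.92 ± 1.43 (SD, n = 3) had an interval of 0.61 to 3.24 and missed the threshold over all ORFs (limma, adjusted p = 0.138). W27 at 12 °C read -0.48, 1.96 and 0.81. YMR210W, a putative acyltransferase, belongs to a class of enzymes that takes part in ester synthesis. It read -1.01, 0.16 and -0.17 in VIN7, with a mean of -0.34 ± 0.60 (SD, n = 3) and an interval of -1.40 to 0.71 that includes 0 (limma, adjusted p = 0.720). W27 at 12 °C read -0.12, -1.60 and -1.89. Since both ORFs were used to settle the direction of the ratio, their signs are no independent result.

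**Figure D4:**
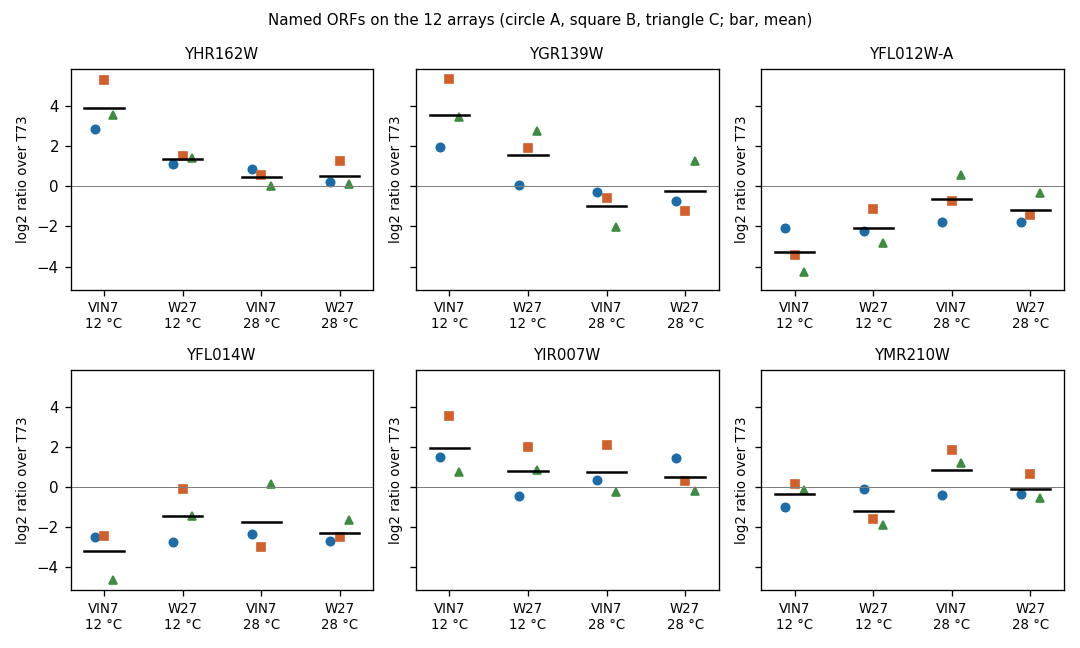
Log2 ratios over T73 (y axis) of the 6 named ORFs in the 4 groups of arrays (x axis), with 1 point per array and a bar at the mean; the triangles of VIN7 at 28 °C come from the array whose direction is unsettled. YHR162W in VIN7 at 12 °C (2.89 to 5.32) lies above all its other arrays, whereas the groups overlap for YIR007W and YMR210W.

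The comparison with W27 at 12 °C asks where VIN7 departs from the other hybrid at the same temperature. No ORF passed the test of the difference between both hybrids, 0 of 6164 (0.0%), and the smallest adjusted p by limma was 0.809. At an unadjusted p under 0.05 there were 93 ORFs with a higher and 44 with a lower ratio in VIN7. Together these were 137 of 6164 ORFs, a share below the 0.05 reached on average if no ORF differed. Whether the test is too strict for this comparison was not tested, so the low share does not measure how alike the hybrids are. Both hybrids were compared with T73 at 12 °C, so the ratios share their control strain, and whether they share its cells is not given in the sources used here. The calls of VIN7 were chosen as extreme in VIN7, so W27 means closer to 0 are no evidence of a difference. The 9 higher ORFs of VIN7 had W27 means from -0.96 to 1.58 with a median of 0.98. The 25 lower ORFs had W27 means from -2.31 to 0.45 with a median of -1.40. For YHR162W the difference was 2.57 with an interval of 1.21 to 3.94 and an unadjusted p by limma of 0.00126, which became 1.00 after adjustment. For YGR139W it was 2.00 (-0.06 to 4.05), for YFL012W-A -1.21 (-2.82 to 0.41) and for YFL014W -1.77 (-3.71 to 0.17). These intervals are wide, and a missed threshold does not show that the hybrids act alike.

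VIN7 has been described elsewhere as having lost the S. kudriavzevii part of chromosome III and as carrying stretches of chromosome VII from S. cerevisiae only, so the ratios were also set out by chromosome. Values for a chromosome are the median log2 ratio of its ORFs minus the median of the array. Chromosome III was higher in VIN7 on all arrays, with 1.04, 0.62 and 0.31 on A, B and C. Chromosome I read 1.25, 0.62 and 0.01, chromosome II 0.67, 0.02 and 0.29, and chromosome IV 0.20, 0.13 and 0.11. No chromosome from V to XVI was above 0 on all 3 arrays, and their means lay between -0.17 and 0.03. By the 2-fold rule, 81 of 205 ORFs of chromosome III were higher (39.5%), as were 35 of 106 on I (33.0%), 100 of 417 on II (24.0%) and 146 of 794 on IV (18.4%), beside 13.9% over all ORFs.

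The raised medians of chromosomes I to IV were not seen in VIN7 alone. In W27 at 12 °C chromosome III read 0.27, 1.12 and 0.76 and chromosome I read 0.31, 0.87 and 1.04. The mean of chromosome III was 0.66 ± 0.36 (SD, n = 3) in VIN7 and 0.72 ± 0.42 in W27, a difference of -0.06 (exact permutation test, two-sided, p = 0.8, adjusted over 16 chromosomes 1.0). Chromosome VII was -0.07 ± 0.15 (SD, n = 3) in VIN7 and -0.17 ± 0.09 in W27, a difference of 0.10 (exact permutation test, two-sided, p = 0.5, adjusted 1.0). With 3 arrays against 3 this test cannot go below 0.1. Raised medians were not limited to 12 °C either. At 28 °C chromosome III read 0.91, 0.32 and 0.10 in W27 and 0.56, 1.45 and -0.04 in VIN7. Chromosome I at 28 °C read 0.72, 0.30 and 0.19 in W27 and 0.62, 0.71 and -1.0 in VIN7. The last VIN7 value of each chromosome comes from the unsettled array. No spot positions were used, so an effect of the chromosome and one of the place on the array cannot be told apart.

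**Figure D5:**
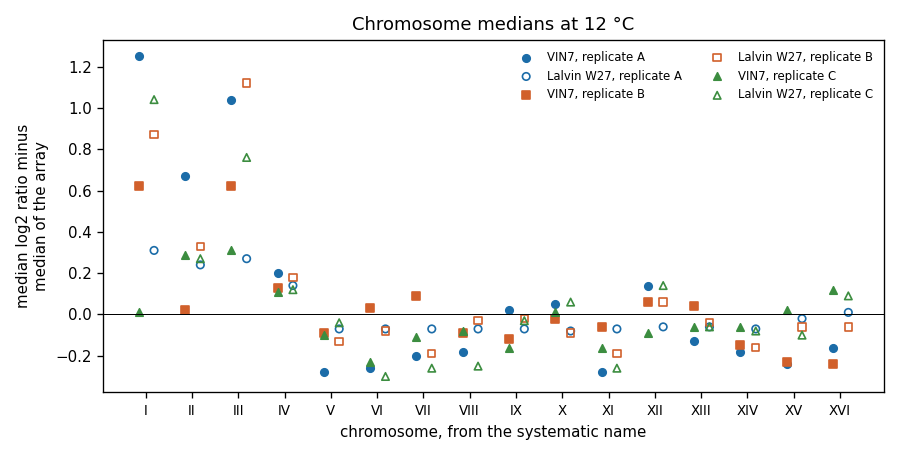
Median log2 ratio of the ORFs of each chromosome minus the median of the array (y axis) by chromosome (x axis) for each array of VIN7 (filled) and W27 (open) at 12 °C. Chromosomes I to IV lie above 0 on all 6 arrays, and chromosome III reaches 1.04 in VIN7 and 1.12 in W27.

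The excess on the first chromosomes decreased when a slow trend along the order of names was taken off each array. Of the 1522 ORFs on chromosomes I to IV, 23.8% were at least 2-fold higher and 8.48% at least 2-fold lower in the deposited values. After removal of a running median over 51 ORFs, taken for odd and even positions in the order of names apart, these shares were 14.2% and 12.9%. On chromosomes V to XVI the shares were 10.6% and 13.0% before and 11.7% and 10.9% after. This removal takes off a chromosome-wide difference in expression or copy number and a trend of the array alike. The calls by limma were not concentrated there. Chromosomes I to IV held 2 of the 9 higher and 4 of the 25 lower ORFs, beside 1522 of the 6166 ORFs tested.

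The ORFs of chromosome III whose names begin with YCLX or YCRX had higher ratios than its other ORFs. Of 30 tested, 19 were at least 2-fold higher by the median (63.3%) and 0 were lower, with array medians of 1.28, 1.34 and 0.74. Of the 175 other ORFs of chromosome III, 62 were higher (35.4%) and 12 were lower. After removal of the trend, 9 of the 30 were higher and 2 lower. These names stand in blocks in the order used, so the removal also takes off part of a level that they share. These ORFs were set apart after their values were seen.

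Yeast chromosome ends hold gene families whose copies differ between strains and share sequence, so their ORFs can bind cDNA of several copies. Among the last 10 ORFs of each arm, 318 had values, of which 66 were at least 2-fold higher (20.8%) and 41 at least 2-fold lower (12.9%). Among ORFs neither first nor last on an arm these shares were 13.1% and 11.7%. Replicate C, the narrowest array, had 23.5% of the end ORFs beyond 2-fold and 12.2% of the inner ones, whereas B had 49.0% and 48.9%. Of the calls, 1 of the 9 higher and 2 of the 25 lower were end ORFs, which were 318 of the 6166 ORFs tested. The ORFs next to a centromere, the first 10 of each arm, were higher in 13.1% and lower in 13.8%. The strand made little difference, with 13.9% higher and 12.0% lower on the W strand and 13.3% and 11.9% on the C strand. Neighbouring ORFs were weakly alike, with a correlation across pairs at distance 1 of 0.15 on replicate A, 0.03 on B and 0.16 on C. On replicate B the correlation alternated along the order of names, with 0.17 at distance 2, 0.01 at distance 3 and 0.10 at distance 4, whereas on A it was 0.12, 0.09 and 0.10 and on C 0.12, 0.08 and 0.06. The table also held a pair of Ty retrotransposon features. TYA read -0.17, 0.83 and -0.09 on A, B and C, and TYB read 0.06, 1.51 and -0.98, so neither had a shared direction.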

How the data were processed

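The authors used GenePix Pro for scanning and global background subtraction and Acuity for normalization. Spots not found were discarded, and print tip effects had a manual correction. The deposited unit is the log2 ratio, 1 per feature and array. Spot intensities were not used here. Precision is limited by the number of arrays, and signal over background is unknown. The sign was turned to hybrid over T73. Left out were 2 control features. No column lacked a sample. Of the VIN7 values at 12 °C, 4 lay below -15, and none of these ORFs passed the test.

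Means of the 4 groups over 12 arrays were fitted with limma 3.58.1 (lmFit, eBayes) in R 4.3.3, and an adjusted p (Benjamini-Hochberg) under 0.05 over ORFs with at least 2 values counted as a call. The script was tested on simulated data. Chromosome medians were compared by exact permutation with scipy 1.17.1. Replicate C of VIN7 at 28 °C correlated across ORFs at -0.60 and -0.38 with replicates A and B at 12 °C and at 0.10 with C. With replicates A and B of VIN7 at 28 °C it correlated at 0.06 each, so it did not oppose its own group. Its direction is therefore unsettled, although the labels give all arrays the same dyes. It entered the test through the shared spread, and with its sign turned there were 10 higher and 29 lower calls. It is also part of the block over the VIN7 arrays, and its values are shown beside the named ORFs.

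Alternatives were recentring, scaling, limited extremes, array weights, a robust prior, a replicate block, fits of fewer arrays, the mean in place of the median and leaving out each array. Removal of the trend, the block over the VIN7 arrays and leaving out W27 arrays were added after seeing the data. The members and lists were chosen with earlier results of these data known. The rule was to name the ORFs past the test with the highest and lowest means and the same sign on all arrays. As no table pairs names with genes, it was limited to 2 each way and the 2 ORFs the study names. The gene lists, and the markers of mating type and meiosis, were therefore not analysed here, and no sequences are shown.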

Additional observations from a re-analysis of the deposited data

Results flagged for a closer look

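YGR139W lay above 0 on every VIN7 array at 12 °C (1.94, 5.34 and 3.46) and below 0 on every VIN7 array at 28 °C (-0.30, -0.57 and -2.03, mean -0.97), opposite directions that singled it out among the 6 named ORFs. The difference was not tested, since T73 at another temperature is the denominator. With the sign of replicate C at 28 °C turned, whose direction is unsettled, the arrays at 28 °C would no longer share a direction. In W27 the same ORF read 0.09, 1.90 and 2.76 at 12 °C. It read -0.73, -1.25 and 1.29 in W27 at 28 °C, so values below 0 at 28 °C were not seen in VIN7 alone.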

How the results depend on the processing

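The number of calls by limma in VIN7 at 12 °C, 34 in all, depended on the treatment of the spread. It was 6 after scaling all arrays to the same spread (5 higher), 67 with only the 3 VIN7 arrays fitted (30 higher), 166 with array weights (82 higher), 21 with a replicate block over the 12 arrays (8 higher) and 318 with a replicate block over the 6 VIN7 arrays (215 higher), which include the unsettled array. Without 1 VIN7 array it ranged from 0 to 200, and without 1 W27 array at 12 °C from 8 to 20 (20, 8 and 19 without A, B and C). The other settings gave 24 to 39. Of the 34 calls, 6 were kept after scaling, 27 with the 3 arrays, 34 with weights, 18 with the block over 12 arrays, 33 with that over 6, 18 with the 6 arrays at 12 °C, 12 without A, 0 without B and 24 without C. Without A, B or C of W27 at 12 °C, 19, 8 and 19 of the 34 were kept. The letters pair no samples by the labels, and deviations of same-lettered arrays correlated at -0.41 to 0.06 between VIN7 and W27 at 12 °C. Between VIN7 at 12 and 28 °C they correlated at 0.24 to 0.59, but at -0.41 to 0.04 with the unsettled array turned. Between VIN7 at 12 °C and W27 at 28 °C they correlated at 0.05 to 0.17. Every VIN7 array at 12 °C matched its own letter best in both groups at 28 °C as deposited. None did so with W27 at 12 °C or with the unsettled array turned. Whether the letters mark a shared batch was not tested. The 2-fold counts without 1 array ranged from 621 to 1307 higher and from 535 to 1047 lower, and the share of higher ORFs from 51.9% to 60.0% over all settings. The difference between VIN7 and W27 had 0 calls by limma in every setting run. At an unadjusted p under 0.05 there were 50 to 249 ORFs, a share below 0.05 in every setting. The means of all 6 named ORFs kept their sign in 14 settings each. The runs without a W27 array were not among these settings, so the named ORFs were not checked there. The mean of YMR210W ranged from -0.61 to -0.01, and its arrays did not share a sign. YHR162W, YGR139W and YFL012W-A lost the call without replicate B, YGR139W and YFL012W-A also after scaling, and YFL014W in 7 settings. YIR007W passed with the block over the VIN7 arrays (limma, adjusted p = 0.0379). The planned medians of gene lists were not run, for want of a table of gene names. The cause of these changes was not tested.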
